A study of Homo sapiens with 6 samples.

Results

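Regulators of G-protein signalling (RGS genes) were followed in cultured human dermal fibroblasts depleted of the zinc-finger gene ZNF469. The set named 10 genes, of which 9 (RGS2, RGS3, RGS4, RGS5, RGS10, RGS12, RGS14, RGS16 and RGS20) had a row among the 21151 genes of the deposited table. RGS7, the remaining gene, was not analysed here. All 9 passed the filter on low counts that 16353 genes passed. The genes were selected on their family name with fold changes of this same comparison already known, so their differences between groups are a description and carry no p-value. Where a member is said to have passed or not, this gives only its side of the threshold in the fit over all genes, and it is no independent evidence.

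The cells were the skin fibroblast line CCD-1064Sk, 1 line from the American Type Culture Collection. There were 3 libraries of cells carrying a short-hairpin RNA against ZNF469 (shZNF469, labelled ZNF469 knockdown) and 3 libraries of cells carrying a control hairpin (shControl, labelled wild type). The submitters call the 3 libraries of a group technical replicates, so spreads and p-values cover only the variation between these libraries. The number of different hairpins is not given in the sources used here. The study asked how ZNF469 affects the making of extracellular matrix.

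RGS proteins bind the activated alpha subunit of a heterotrimeric G protein and speed the hydrolysis of its GTP, which shortens the signal of a G-protein-coupled receptor. Members of the R4 subfamily (RGS2, RGS3, RGS4, RGS5, RGS16) are mostly small and hold little beyond the RGS domain, except long forms of RGS3. RGS12 and RGS14 of the R12 subfamily also bind Ras-like GTPases and inactive alpha subunits. Fibroblasts use such receptors to sense lysophospholipids, prostaglandins, endothelin and peptide hormones.

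Total counts ran from 41318439 to 48298264 in shZNF469 and from 35417366 to 46911355 in shControl. ZNF469 averaged 19.4 ± 1.77 CPM in shZNF469 and 42.0 ± 3.70 CPM in shControl (SD, n = 3 each), where CPM is the count scaled to library depth after trimmed-mean (TMM) scaling (log2 fold change -1.12, SE 0.09, edgeR adjusted p = 0.000873). Positive log2 fold changes mean higher in shZNF469, and genes are said to have passed where the adjusted p was below 0.05. All 10 fibroblast markers looked up were present, with a summed level of 28239 to 30109 TPM (the authors' unit, scaled by transcript length and library total) in shZNF469 and 34950 to 37597 TPM in shControl. Of these 10 markers, 3 passed as lower (COL1A1, COL1A2 and COL3A1) and 2 as higher (VIM and FBLN1). Of 6 keratinocyte markers, 1 had a row, KRT10, at 18.5 to 18.8 TPM in shZNF469 and 24.4 to 28.3 TPM in shControl, and none of 5 melanocyte markers had one. What part these shifts had in the RGS results was not tested. Of 6 endothelial markers, 3 had a row, and their sum reached at most 1.35 TPM in shZNF469 and 1.66 TPM in shControl.

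RGS4 and RGS2 were the members that passed as lower, and a promoter window of each is shown for that reason. Another window belongs to RGS5, the neighbour of RGS4, whose groups overlapped. The windows span 250 bases before to 50 bases after a RefSeq start on GRCh38.p14, and each is written in the direction of transcription. Capitals mark matches to 4 short motifs, searched on both strands. The TATA box, which places the start of transcription, was searched as TATAAA. A box named for its own letters, which the factor NF-Y binds, was searched as CCAAT. The GC box, which Sp1 binds, was searched as GGGCGG. The core of the cyclic AMP response element was searched as TGACG, and the whole element as TGACGTCA, which contains that core. For genes with several windows, the window with most kinds of match is shown, or the first that RefSeq's table lists where windows tie, as both RGS5 windows do with 1 kind each. That choice was made after the sequences were seen. The RGS4 window lies at chr1:163069111-163069410 on the plus strand, that of RGS2 at chr1:192808789-192809088 on the plus strand, and that of RGS5 at chr1:163321686-163321985 on the minus strand.
RGS4: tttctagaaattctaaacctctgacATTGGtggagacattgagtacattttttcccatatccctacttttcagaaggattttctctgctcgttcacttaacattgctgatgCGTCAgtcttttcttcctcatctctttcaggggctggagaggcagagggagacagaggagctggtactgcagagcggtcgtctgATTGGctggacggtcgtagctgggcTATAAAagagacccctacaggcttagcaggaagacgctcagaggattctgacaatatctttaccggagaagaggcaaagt
RGS2: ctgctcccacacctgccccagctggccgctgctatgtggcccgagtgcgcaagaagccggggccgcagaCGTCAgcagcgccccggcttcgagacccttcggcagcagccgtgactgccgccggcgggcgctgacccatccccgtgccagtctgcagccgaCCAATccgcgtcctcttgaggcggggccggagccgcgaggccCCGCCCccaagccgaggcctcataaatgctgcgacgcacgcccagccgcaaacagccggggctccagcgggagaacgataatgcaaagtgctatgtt
RGS5: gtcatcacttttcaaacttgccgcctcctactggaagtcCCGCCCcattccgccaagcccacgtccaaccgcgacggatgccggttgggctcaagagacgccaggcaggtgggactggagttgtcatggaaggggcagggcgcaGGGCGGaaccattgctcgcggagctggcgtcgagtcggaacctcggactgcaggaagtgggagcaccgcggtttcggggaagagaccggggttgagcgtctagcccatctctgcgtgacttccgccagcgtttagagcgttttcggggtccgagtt

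The RGS4 window held, counted from the start, TATAAA at -30, CCAAT on the reverse strand at -55 and -225, and TGACG on the reverse strand at -139. The RGS2 window held TGACG on the reverse strand at -181, CCAAT at -89 and GGGCGG on the reverse strand at -47. In the RGS5 window the matches were GGGCGG, on the reverse strand at -211 and on the forward strand at -106, and the other RGS5 window held CCAAT. Windows with these letters are common: of 35116 windows of all genes, 34.6% held CCAAT, 24.6% TGACG, 45.0% the GC box and 11.5% the TATA box. The whole element TGACGTCA was in 1.85% of windows and in none of these 3. GC content was 47.0% in the RGS4 window, 69.7% in that of RGS2 and 63.0% in that of RGS5. RefSeq lists 4 windows for RGS4, and the data do not show which start was used. Those beginning at 163068621 and 163071655 held none of the motifs, and that beginning at 163069004 held CCAAT and TGACG. The percentages above are for single windows, whereas the RGS4 window shown was picked from 4 for its matches. A match of letters is a description of the window and not a bound site.

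RGS4, which acts on the Gi and Gq classes of alpha subunit and whose protein is short-lived, was the member with the largest difference. It had 374, 414 and 313 counts in shZNF469 replicates 1, 2 and 3, against 882, 1062 and 886 counts in shControl. Scaled to depth, these were 8.01, 8.35 and 7.70 CPM in shZNF469, against 24.8, 22.5 and 23.7 CPM in shControl. Every knockdown library lay far below every control library, and the spread within each group was under 5% of its mean (4.05% in shZNF469 and 4.69% in shControl). RGS4 was thus 2.95-fold lower, with a log2 fold change of -1.56 (SE 0.07). Among the 874 genes that passed as lower it was number 50 by size of the fall. In the authors' TPM the level was 6.12 ± 0.659 in shZNF469 and 17.4 ± 1.08 in shControl (SD, n = 3 each). In bulk RNA, fewer cells that express RGS4 and less RGS4 RNA per cell cannot be told apart.

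RGS2, which acts preferentially on the Gq class, had a smaller difference. It stood at 16.8, 17.0 and 17.4 CPM in shZNF469, against 20.5, 20.3 and 20.3 CPM in shControl. The groups did not overlap. The SD of the control libraries was 0.533% of their mean, less than random sampling of 729 to 956 counts would give. This closeness is therefore no measure of precision. RGS2 was 1.19-fold lower (log2 fold change -0.25, SE 0.06). It passed as lower, but that call was lost in 11 of 13 alternative settings, including the removal of any of the 6 libraries, while the log2 fold change stayed between -0.27 and -0.24. A long noncoding gene on the opposite strand spans RGS2 (ENSG00000285280 in GENCODE release 29) and had between 0 and 15 counts per library, against 706 to 956 for RGS2.

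Among the 9 members, 0 passed as higher and 2 as lower. Over all tested genes, 4.56% passed as higher and 5.34% as lower, and since the members were picked with this comparison known nothing is read from their share. The count of 0 higher came from edgeR, where 0 members rose at an unadjusted p under 0.05, and DESeq2 also gave 0. The libraries of shZNF469 lay wholly below those of shControl for RGS4 and RGS2 and wholly above for RGS14, against 15.7% below and 15.6% above over all tested genes. The median log2 fold change of the members was 0.01 and that of all tested genes 0.00395.

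**Figure D1:**
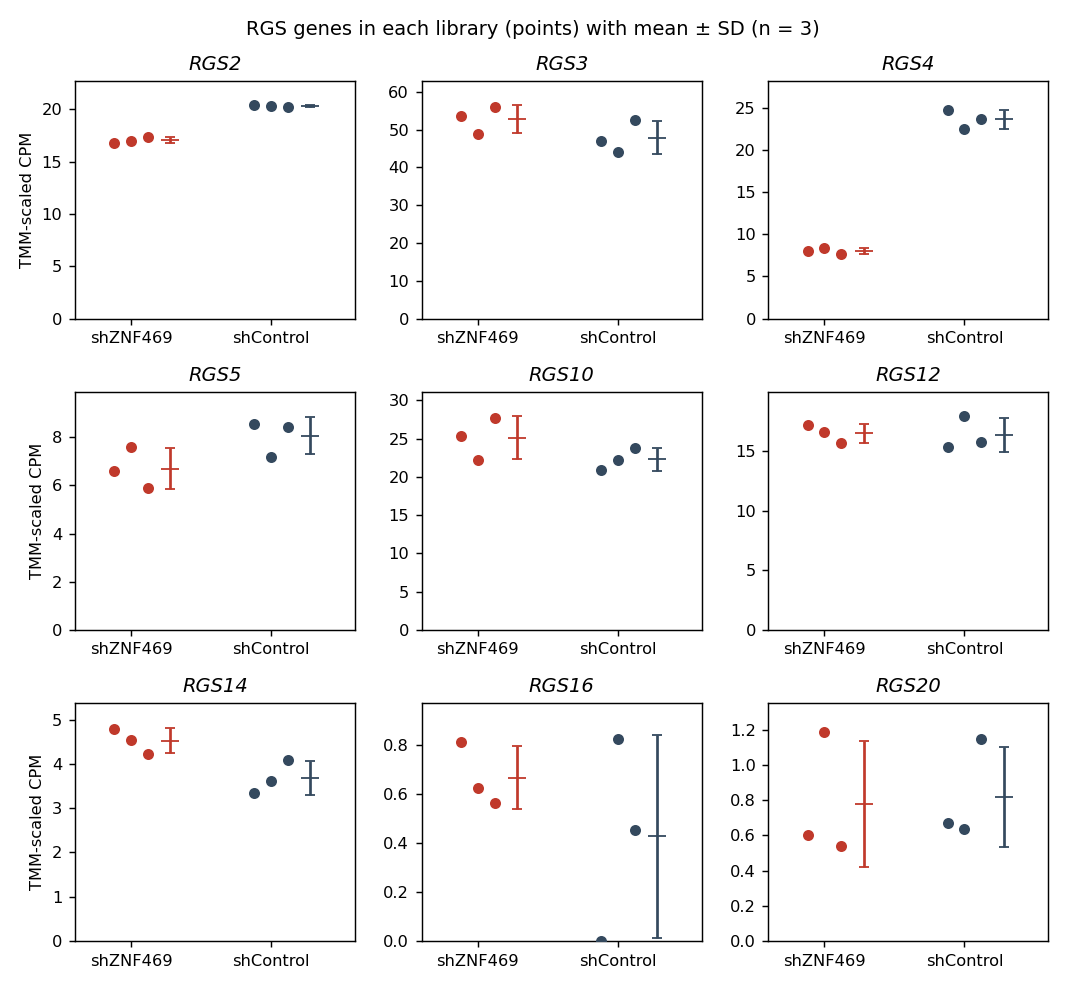
Depth-scaled level (TMM-scaled CPM, vertical axis from 0) of the 9 RGS members, with a point for each library of shZNF469 (red) and shControl (dark blue) and the mean ± SD beside them (n = 3). RGS4 libraries sit at 7.70 to 8.35 CPM in shZNF469 and 22.5 to 24.8 CPM in shControl, RGS2 and RGS14 are also apart, and the other 6 genes overlap.

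RGS5, an R4 gene widely used as a marker of pericytes, lies next to RGS4. RGS4 occupies 163068871 to 163076802 and RGS5 163142299 to 163321735 on chromosome 1 (RefSeq, GRCh38.p14), with 65496 bases between them and opposite strands. RGS5 had 6.60, 7.61 and 5.91 CPM in shZNF469, against 8.56, 7.17 and 8.45 CPM in shControl. The groups overlapped, because shZNF469 replicate 2 was above shControl replicate 2. Its log2 fold change was -0.26 (SE 0.13), which did not pass. The change of RGS4 was not tested against that of its neighbour.

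The RGS5 value is uncertain, because NUF2, a kinetochore gene, overlaps it on the opposite strand and the strand setting of counting is not given. NUF2 averaged 3.13 ± 0.195 CPM in shZNF469 and 8.84 ± 0.993 CPM in shControl (SD, n = 3 each), a 2.82-fold fall (adjusted p = 0.000873, edgeR). How many RGS5 counts came from NUF2 was not tested. GENCODE also gives the name RGS5 to another gene, which overlaps the member RGS5 on the same strand. That other entry had 23, 7 and 24 counts in shZNF469, against 8, 0 and 7 in shControl. It did not pass the filter on low counts and is not part of the RGS5 values given here. Of 12 markers of pericytes and smooth muscle, 10 had a row and 9 were tested, with 0 higher and 1 lower, MCAM. COX4I2 and MYH11 had no row. HIGD1B, which had a row but was not tested, had 5 counts in shZNF469 replicate 1 and 0 in every other library. The summed level of the 10 markers with a row was 774 to 826 TPM in shZNF469 and 785 to 825 TPM in shControl, so the groups overlapped. The largest parts of that sum were ACTA2 (mean 380 TPM in shZNF469 and 394 TPM in shControl) and PDGFRB (264 and 234 TPM). Among markers that did not pass, KCNJ8 and ABCC9 lay wholly below the controls (log2 fold change -0.50 and -0.36). PDGFRB and NOTCH3 lay wholly above the controls (0.19 and 0.23). How these markers relate to RGS5 was not tested.

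RGS3 and RGS16 complete the R4 members. RGS3, which has long forms with extra domains beside the short ones, was the most abundant member by count. It had 53.6, 48.8 and 56.1 CPM in shZNF469, against 47.1, 44.1 and 52.6 CPM in shControl. The groups overlapped, and the log2 fold change of 0.14 (SE 0.08) did not pass. RGS16, whose protein is short-lived like that of RGS4, was near the lower limit of the table. Its counts were 38, 31 and 23 in shZNF469, against 0, 39 and 17 in shControl. With 1 control library listed at 0, the fitted log2 fold change of 0.63 had an SE of 1.14 and did not pass, and no direction is drawn from it.

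In the R12 subfamily, no member passed. RGS10, a short protein best known from immune cells and microglia, had 25.4, 22.2 and 27.8 CPM in shZNF469, against 20.9, 22.2 and 23.8 CPM in shControl (log2 fold change 0.17, SE 0.10). Its groups overlapped through replicate 2 of shZNF469. Of 6 leukocyte markers, 2 had a row, CD68 and TYROBP, with a summed level of 202 to 244 TPM in shZNF469 and 172 to 193 TPM in shControl, of which the 1 tested did not pass. Their part in the RGS10 values was not tested. RGS12, a scaffold with several protein-binding domains, had 17.2, 16.6 and 15.7 CPM in shZNF469, against 15.3, 18.0 and 15.7 CPM in shControl. Its log2 fold change of 0.01 (SE 0.09) changed sign in 6 of 13 settings. RGS14, which also binds Ras-like GTPases, had 4.80, 4.54 and 4.23 CPM in shZNF469, against 3.34, 3.61 and 4.09 CPM in shControl. Here each knockdown library was above each control library, but the gap between the nearest pair was small and the log2 fold change of 0.30 (SE 0.13) did not pass.

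RGS20, of the RZ subfamily that acts on the Gi relative Gz, was barely expressed. It had 28, 59 and 22 counts in shZNF469, against 24, 30 and 43 in shControl. The libraries were intermixed (log2 fold change -0.07, SE 0.52), and the SD was 46.2% of the mean in shZNF469 and 34.9% in shControl.

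Because TPM is scaled by length, it allows levels of different members to be set side by side. RGS3 (71.1 ± 7.32 TPM in shZNF469 and 66.7 ± 2.81 TPM in shControl) and RGS10 (62.7 ± 3.11 TPM in shZNF469 and 56.6 ± 1.41 TPM in shControl) were the most abundant. These top genes overlapped in shZNF469 and not in shControl. RGS2 followed at 29.2 ± 1.43 TPM in shZNF469 and 35.2 ± 1.75 TPM in shControl. RGS4 came after RGS2 in shControl at 17.4 TPM, above RGS12 at 9.45 ± 1.68 TPM, and its libraries there overlapped with those of no other member. In shZNF469 the 6.12 TPM of RGS4 lay below RGS12 at 8.84 ± 0.952 TPM and within the range of RGS14 at 6.67 ± 1.15 TPM. RGS5 reached 2.73 ± 0.517 TPM in shZNF469 and 3.29 ± 0.318 TPM in shControl, and no library of RGS16 or RGS20 was above 1.36 TPM in shZNF469 or 1.90 TPM in shControl (SD, n = 3 each for all).

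RGS4 supplied 3.23 ± 0.253% of the summed TPM of the 9 members in shZNF469 and 8.88 ± 0.491% in shControl. The sum itself was 194.9, 194.5 and 177.9 TPM in shZNF469, against 197.0, 194.9 and 194.5 TPM in shControl. The groups met in that total, since the 2 higher knockdown libraries were level with the controls. Most of the summed TPM of the 9 members was thus RGS3, RGS10 and RGS2 in both groups. RGS genes outside the members, such as RGS9 and RGS19, are not in this sum.

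**Figure D2:**
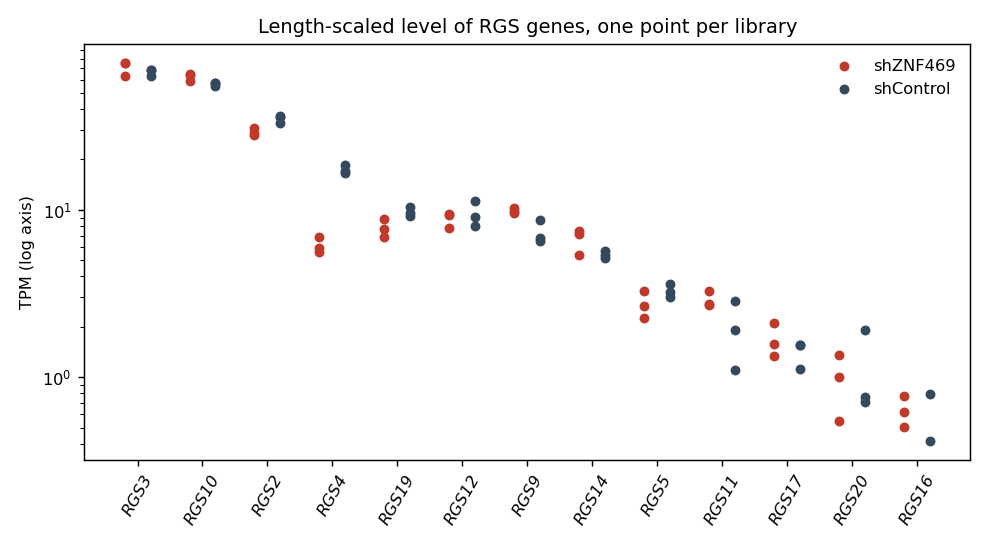
Length-scaled level (TPM, log axis) of the 9 members and of 4 other RGS genes in each library of shZNF469 (red) and shControl (dark blue), ordered by the shControl mean. The RGS4 points lie at 5.57 to 6.85 TPM in shZNF469 and at 16.5 to 18.6 TPM in shControl; the control library in which RGS16 is listed at 0 is not drawn.

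Of 12 other RGS genes looked up, 5 had a row and 4 were tested, of which 1 passed as higher and 0 as lower by edgeR. At an unadjusted p under 0.05 there was 1 in each direction, and DESeq2 gave 1 higher and 0 lower. Over all tested genes, 4.56% passed as higher and 5.34% as lower, shares that also apply to the lists below. These lists, like the members, were chosen with earlier results of these data known. Their counts, medians and adjusted p-values are a description and no independent evidence. RGS9, known from retinal rods and the striatum, had 10.8, 10.2 and 11.2 CPM in shZNF469, against 8.06, 7.32 and 7.67 CPM in shControl. All knockdown libraries were above all control libraries, a 1.40-fold rise (log2 fold change 0.48, SE 0.09, edgeR adjusted p = 0.0183). The call was lost in 8 of 13 settings: without shZNF469 replicate 1 or 3, without each control library, and with limma on the TPM values, with adjusted p up to 0.155. RGS19 averaged 5.16 ± 0.247 CPM in shZNF469 and 6.24 ± 0.408 CPM in shControl and did not pass (adjusted p = 0.164, edgeR). RGS11 averaged 4.06 ± 0.571 CPM in shZNF469 and 3.08 ± 0.792 CPM in shControl (adjusted p = 0.342, edgeR). FAM234A overlaps it on the other strand and averaged 181 ± 12.7 CPM in shZNF469 and 158 ± 3.47 CPM in shControl. How many RGS11 counts came from FAM234A was not tested. RGS17 averaged 5.75 ± 1.02 CPM in shZNF469 and 4.82 ± 0.654 CPM in shControl (adjusted p = 0.432, edgeR; SD, n = 3 each). RGS18 was listed at 29 counts (0.645 TPM) in shZNF469 replicate 1 and at 0 in the other 5 libraries. The lowest TPM above 0 of any gene was between 0.333 and 0.456 in each library. A listed 0 may therefore stand for a low level, and no difference is read from RGS18.

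**Figure D3:**
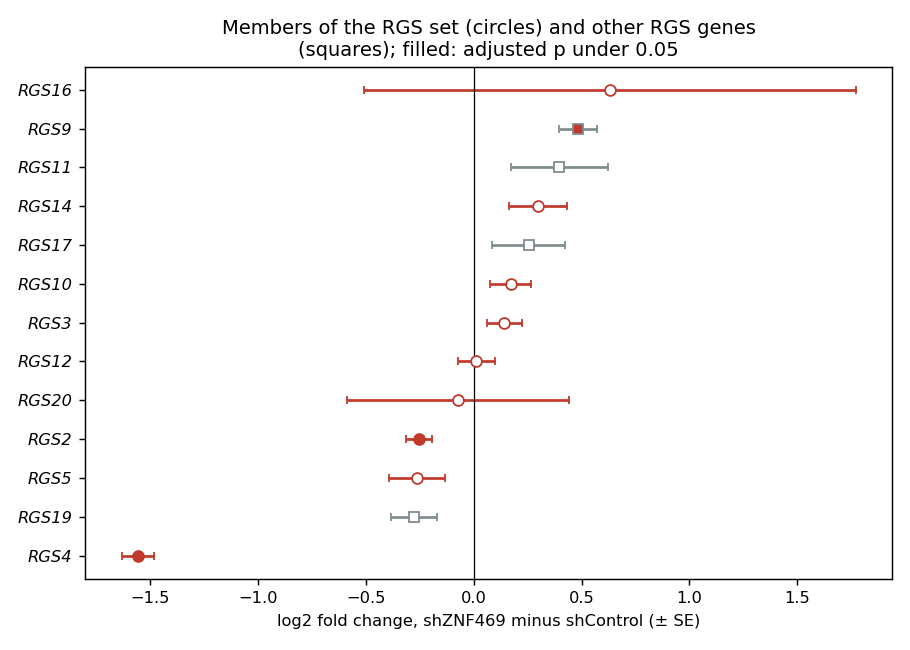
Log2 fold change (shZNF469 minus shControl, ± SE, edgeR) of the 9 members (circles) and 4 other RGS genes (squares); filled symbols passed at an adjusted p under 0.05. RGS4 at -1.56 stands apart from the other genes, which lie between -0.28 and 0.63.

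Partners of RGS proteins and other proteins with an RGS-homology domain were looked up next. Of 19 tested, 1 was higher and 1 lower, and their log2 fold changes had a median of 0.04. AXIN2, a scaffold that restrains WNT signalling, had 16.3, 17.9 and 16.5 CPM in shZNF469, against 13.1, 12.9 and 13.2 CPM in shControl (log2 fold change 0.37, SE 0.07, edgeR adjusted p = 0.0204). GRK6, a kinase that desensitises receptors, had 17.2, 15.8 and 17.0 CPM in shZNF469, against 20.3, 19.5 and 20.1 CPM in shControl (log2 fold change -0.26, SE 0.07, edgeR adjusted p = 0.0497). Both genes were apart between groups, yet the call of AXIN2 was lost in 9 and that of GRK6 in 12 of 13 settings, in each case including the removal of shZNF469 replicate 1 or 3 or any control library. GRK6 also lost its call without shZNF469 replicate 2.

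None of the tested genes for subunits of heterotrimeric G proteins passed by edgeR. Of 21 tested alpha, beta and gamma subunit genes, 0 were higher and 0 lower by edgeR, with a median log2 fold change of -0.05. At an unadjusted p under 0.05 there were 0 higher and 2 lower, GNAI3 and GNG11, and DESeq2 gave 0 higher and 1 lower. GNAI3, an inhibitory alpha subunit gene, averaged 116 ± 5.30 CPM in shZNF469 and 133 ± 10.7 CPM in shControl (SD, n = 3 each, edgeR adjusted p = 0.143).

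Among 40 tested receptor genes of a list for fibroblasts, 4 passed as lower and 1 as higher by edgeR. Over all tested genes, 5.34% passed as lower and 4.56% as higher. At an unadjusted p under 0.05, 12 receptor genes were lower and 2 higher, and DESeq2 called 10 lower and 1 higher. The log2 fold changes of the receptor genes had a median of -0.13, against 0.00395 over all tested genes. Since this list was chosen with earlier results of these data known, nothing is read from its share or median. OXTR, the oxytocin receptor gene, had 221, 238 and 220 CPM in shZNF469, against 305, 295 and 288 CPM in shControl (log2 fold change -0.39, SE 0.05, edgeR adjusted p = 0.00577). S1PR3, a sphingosine-1-phosphate receptor gene, had 141, 138 and 136 CPM in shZNF469, against 168, 172 and 168 CPM in shControl (log2 fold change -0.29, SE 0.05, edgeR adjusted p = 0.0108). For both, the groups were well separated. PTGER2, a prostaglandin E2 receptor gene, averaged 3.18 ± 0.368 CPM in shZNF469 and 5.50 ± 0.791 CPM in shControl (edgeR adjusted p = 0.0249). HRH1, the histamine H1 receptor gene, averaged 44.0 ± 0.882 CPM in shZNF469 and 50.5 ± 0.857 CPM in shControl (edgeR adjusted p = 0.0391). The gene that went the other way was PTGFR, the prostaglandin F receptor gene, at 83.7, 92.9 and 80.0 CPM in shZNF469, against 65.5, 63.8 and 61.2 CPM in shControl (log2 fold change 0.43, SE 0.07, edgeR adjusted p = 0.0110).

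OXTR passed with each of the 6 libraries left out in turn, and the other 4 receptors each lost their call without at least 1 library. Without shControl replicate 1, 2 or 3 there were 1, 2 and 1 lower and 0 higher receptors, and without shZNF469 replicate 3 there were 2 lower. OXTR kept its call in 12 of 13 settings, S1PR3 and PTGFR in 7, PTGER2 in 5 and HRH1 in 2.

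Effectors act downstream of the G proteins. Of 31 tested, 4 were higher and 0 lower by edgeR (9 and 3 at an unadjusted p under 0.05, and 8 and 1 with DESeq2), with a median log2 fold change of 0.05. Over all tested genes, 4.56% passed as higher and 5.34% as lower by edgeR. Nothing is read from the share of effectors, whose list was also chosen with earlier results known. PLCB1, a phospholipase C activated by Gq, had 10.1, 12.6 and 10.2 CPM in shZNF469, against 6.51, 7.24 and 6.39 CPM in shControl (log2 fold change 0.71, SE 0.12, edgeR adjusted p = 0.0134). PLCB3, of the same enzyme family, averaged 52.2 ± 2.40 CPM in shZNF469 and 44.4 ± 0.841 CPM in shControl (edgeR adjusted p = 0.0365). ADCY4, an adenylyl cyclase gene, averaged 28.8 ± 2.54 CPM in shZNF469 and 20.7 ± 2.03 CPM in shControl (edgeR adjusted p = 0.0244). ITPR3, an inositol trisphosphate receptor gene that releases stored calcium, averaged 139 ± 6.06 CPM in shZNF469 and 117 ± 4.97 CPM in shControl (edgeR adjusted p = 0.0388; SD, n = 3 each). The count of higher effectors was 0 without shControl replicate 1 or 3, 2 without shControl replicate 2, and 1 without shZNF469 replicate 1 or 3.

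**Figure D4:**
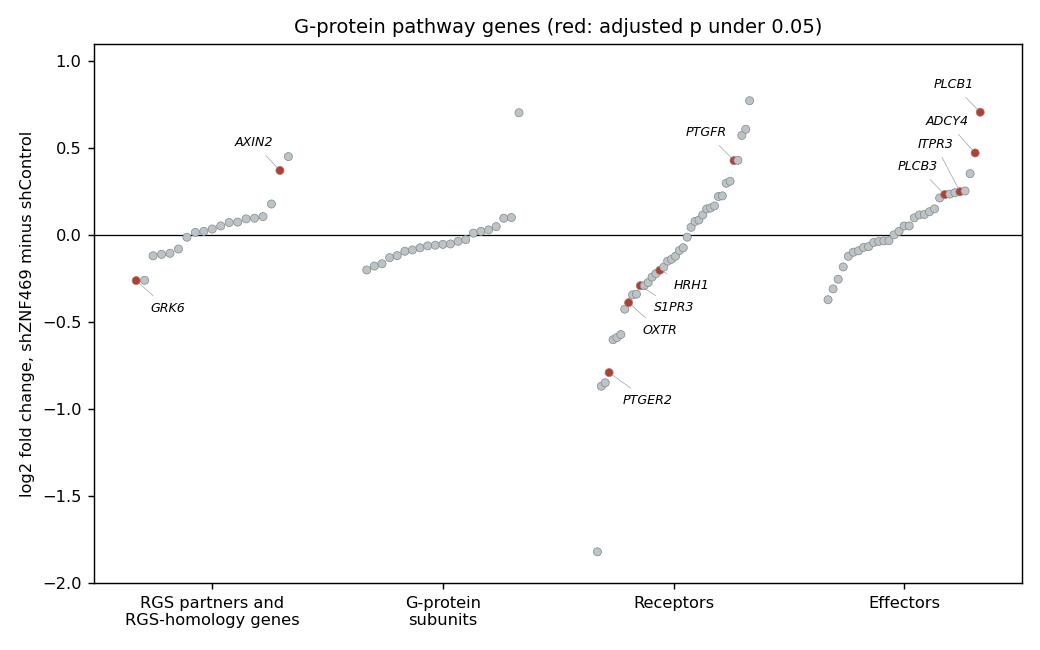
Log2 fold change (shZNF469 minus shControl, edgeR) of every tested gene in 4 lists around the RGS proteins, sorted within each list, with genes at an adjusted p under 0.05 in red and named. The red points number 2 among RGS partners, 0 among G-protein subunits, 5 among receptors and 4 among effectors.

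Over the 6 libraries, the genes whose log2(CPM + 0.5) followed that of RGS4 most closely, among 9399 with a symbol and a mean of at least 10 CPM, included SFPQ, SRSF1, P4HA1 and NBPF3 (Pearson's r of 0.998 to 0.999, a description over 6 libraries that share the split into 2 groups). P4HA1, a collagen prolyl hydroxylase gene, averaged 60.3 ± 0.981 CPM in shZNF469 and 127 ± 0.438 CPM in shControl (SD, n = 3 each). SFPQ and SRSF1, which encode splicing proteins, had log2 fold changes of -0.42 and -0.62, and NBPF3, of a family of near-identical copies whose reads may be split uncertainly, had -0.18. RGS4 itself had the larger fall, at -1.56.

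The call of RGS4 as lower was the same in all 13 alternative settings, with log2 fold changes between -1.59 and -1.37. Those of RGS2 and RGS9 kept their sign and mostly lost their call.

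**Figure D5:**
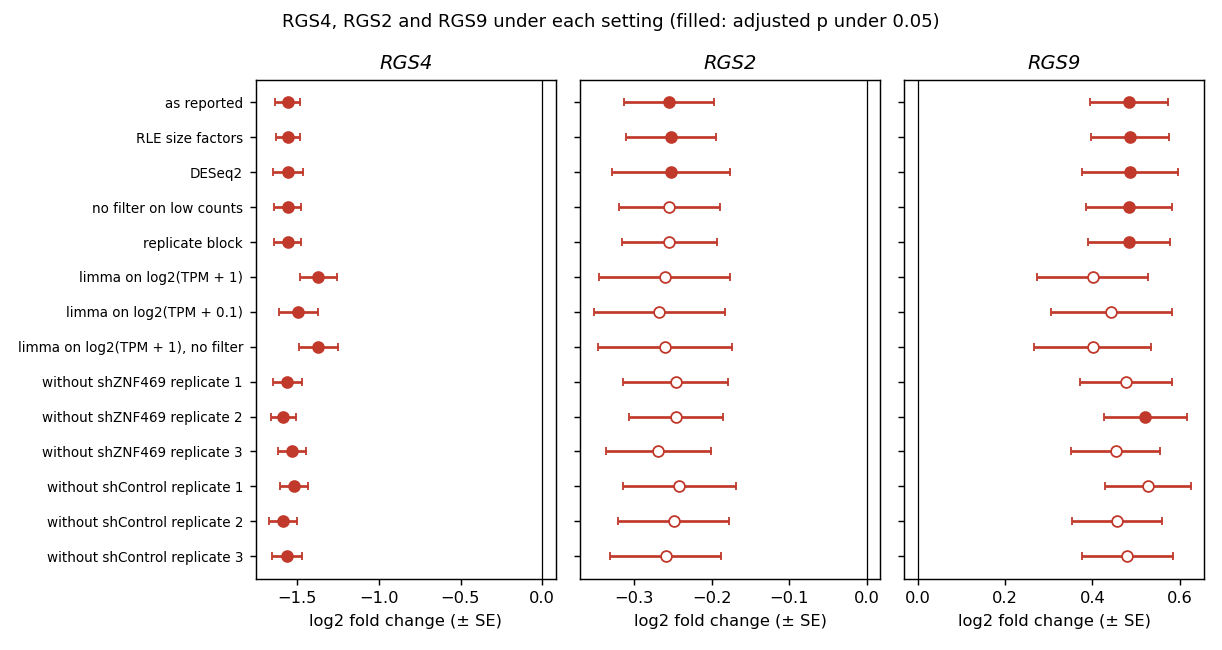
Log2 fold change (shZNF469 minus shControl, ± SE) of RGS4, RGS2 and RGS9 as reported and in 13 alternative settings; filled points had an adjusted p under 0.05, and each panel has its own horizontal scale. RGS4 is filled in every row, RGS2 as reported and in 2 alternatives, and RGS9 as reported and in 5 alternatives.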

How the data were processed

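RNA of 6 libraries was sequenced; columns extracted total RNA and a NEBNext Ultra kit made the libraries, per the labels' protocols. The build GRCh38.p14 and the tools HISAT2 and StringTie (no versions) are named per the submitters' processing notes, which in the form used here say nothing of annotation, strand setting or filters. The authors deposited a whole-number count per gene and library and TPM values scaled by transcript length, per the file headers.

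Counts were compared with edgeR 4.0.16 in R 4.3.3: filterByExpr (minimum count 10), TMM scaling, quasi-likelihood F-test (two-sided), Benjamini-Hochberg adjustment over 16353 genes. The SE comes from the estimate and its F statistic. Alternatives were RLE size factors, DESeq2 1.42.0, no filter, a replicate block, limma 3.58.1 on log2(TPM + 1) or log2(TPM + 0.1), and each library left out. Within-group library pairs differed beyond sampling noise (chi-square 7.95 to 36.9 per degree of freedom). A repeated symbol was represented by its entry with the highest mean. Promoter windows came from RefSeq: 8 of the members had 21 windows, and those of the remaining member are not shown.

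Members and lists were chosen with earlier results of these data known. Named genes were ZNF469, all members, other RGS genes, up to 4 genes per direction with the lowest p among those that passed in each list, and the 5 genes closest to RGS4, of which 1 is not reported here. NUF2, FAM234A, GNAI3, GNG11 and the marker genes of fibroblasts, pericytes and smooth muscle, keratinocytes and leukocytes were named after their values were seen.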

Additional observations from a re-analysis of the deposited data

How the results depend on the processing

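Of 13 alternatives, including the removal of each of the 6 libraries, each left ZNF469 and RGS4 lower and past the threshold. RGS2 counted as lower with RLE size factors and DESeq2; the members called lower came to 1 with no filter on low counts, the replicate block, each limma fit, and each library left out. The members called higher were 0 throughout.

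Over all genes, DESeq2 called 1622 higher and 1624 lower. Limma on log2(TPM + 1) called 233 and 526, on log2(TPM + 0.1) 191 and 462, and without a filter 208 and 472. With single libraries left out the higher genes ran from 204 to 769 and the lower ones from 333 to 854. With the replicate block, 592 were higher and 736 lower.

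For other RGS genes, higher calls were 0 with each limma fit and 0 to 1 with libraries left out. For RGS partners, DESeq2 gave 2 higher and 2 lower, the replicate block and each limma fit 0 and 0, and left-out libraries 0 to 1 in each direction; RLE size factors and no filter gave 0 lower. G-protein subunits had 1 lower with DESeq2. Receptors had 10 lower with DESeq2, 2 with the replicate block, and 1, 0 and 1 lower and 0 higher with limma on log2(TPM + 1), log2(TPM + 0.1) and without a filter; left-out libraries gave 1 to 5 lower and 0 to 1 higher. Effectors had 8 higher and 1 lower with DESeq2, 2 higher with the replicate block and 0 with each limma fit; left-out libraries gave 0 to 4 higher and 0 to 1 lower. The cause of these differences was not tested.

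RGS12 reversed to -0.0792, -0.0863 and -0.0792 in the limma fits and lay between -0.0253 and 0.0939 with libraries left out. RGS20 lay between -0.514 and 0.245 with libraries left out. Deviations of same-numbered libraries from their group means correlated at -0.0405, 0.0629 and 0.0827, so replicate numbers were not treated as pairs. Counts below about 60 per library (RGS16, RGS20) limit what could be detected.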

Other observations

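The authors' TPM and the counts imply a transcript length for each gene and library, and its highest value over its lowest across libraries was 1.05 for the median of 14831 genes. It was 1.01 for RGS2, 1.03 for RGS5 and 1.06 for RGS4, so TPM and counts gave near-equal changes there. It was 1.15 for RGS12 and RGS14, 1.22 for RGS3 and 1.61 for RGS20. For RGS3 the relative length was 1.14 in shZNF469 replicate 3 and between 0.938 and 0.973 in the other shZNF469 libraries. RGS20 stood at 0.748 in shZNF469 replicate 1 and at 0.728 in shControl replicate 3, against 1.14 to 1.17 in the other 4 libraries.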
